A study of Mus musculus with 36 samples.

Results

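The genes described here are 32 mouse genes of cholesterol metabolism, taken by symbol from a list. The rule uses no measured value, but the list was drawn up with earlier results of these data known. All 32 symbols were matched exactly among the 24940 genes of the deposited count table. They comprise 18 enzymes of cholesterol synthesis, 4 regulators of the SREBP system (Srebf1, Srebf2, Scap and Insig1), 3 fatty acid enzymes (Fasn, Scd1 and Scd2), 5 genes of sterol transport and LXR signalling (Abca1, Abcg1, Nr1h2, Nr1h3 and Stard4), and Soat1 and Cyp46a1, which store and remove cholesterol. All 32 passed the filter on low counts in every bulk comparison, and all but Idi1 passed it in sorted microglia.

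Poly(A) RNA was sequenced in 36 libraries from male mice. The model of multiple system atrophy (MSA) was the MBP29-hα-syn line, in which a myelin basic protein promoter drives human α-synuclein in oligodendrocytes, and wild-type mice were the controls. Mice of both genotypes were fed standard chow (placebo below) or chow holding the CSF1R inhibitor PLX5622 at 1200 mg/kg, which depletes the microglia that need this receptor, from 4 weeks of age for 12 weeks, before archived frozen cortex, corpus callosum and striatum were used. The 4 groups of cortex held 3 libraries each. Placebo controls of corpus callosum and placebo MSA mice of striatum also gave 3, and every remaining group of these regions gave 2. Microglia were sorted as CD11b+ CD45low cells at 16 weeks of age with no diet arm, 3 libraries a genotype. Their labels are not uniform: the protocol names wild-type animals, while the control microglia carry a tag for heterozygous MBP29 animals and the MSA microglia a tag for homozygous ones, so these controls may carry the transgene. The 2 control striatum PLX5622 libraries have a no-treatment tag and were grouped by title. Which libraries came from the same animal is not in the labels, and p-values therefore cover the spread among libraries only.

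Each library held between 4.36 and 28.6 M reads assigned to genes. The regions and the sort carried their markers: 12 oligodendrocyte genes summed to 26649 counts per 1000000 assigned (CPM, mean) in placebo control corpus callosum against 3258 in cortex, 6 striatal projection neuron genes to 7301 CPM in striatum against 321 in cortex, and 10 microglia genes to 46302 CPM in sorted control microglia. The same microglia genes summed to between 402 and 476 CPM in the placebo control regions and to between 2.2 and 7.4 CPM with PLX5622, the 2 control striatum libraries with the no-treatment tag included (4.0 and 0.43 CPM). In MSA mice they summed to between 574 and 734 CPM on placebo and still to between 133 and 193 CPM with PLX5622. In 6 bulk libraries under 70% of the reads of the header total were assigned to genes. Hmgcs1, Fdps, Dhcr7, Srebf2, Fasn and Cyp46a1 were each at the lowest level of their group in all 6 of these libraries, and Sqle, Scap, Scd2, Abcg1 and Soat1 were so in 5 of them. Idi1 and Nr1h3 were at the highest level of their group in 5. These groups held only 2 or 3 libraries, and the share of all genes at the lowest or highest level in these libraries was not counted. Its part in the results was not tested beyond the fits without these libraries.

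Cholesterol in the brain is made locally, because plasma lipoproteins hardly cross the blood-brain barrier, and most of it lies in myelin. Sterols hold SREBP proteins in the endoplasmic reticulum through SCAP and INSIG. When sterols fall, SREBP-2 reaches the nucleus and switches on the synthesis enzymes. Oxysterols made from excess cholesterol activate the LXR receptors, which switch on the exporters ABCA1 and ABCG1 and the gene of SREBP-1c. Microglia and astrocytes use these exporters to pass sterol on to lipoprotein particles, SOAT1 stores it as esters, and neuronal CYP46A1 turns it into a form that leaves the brain.

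SREBP proteins bind sterol regulatory elements next to boxes for the factors NF-Y and Sp1. RefSeq promoters of build GRCm38.p6 were found for 25 of the 32 genes, and the 250 bases before each start were searched on both strands. These 25 genes had 32 promoters. A gene counted if any of its promoters matched, while the shares of all are of single promoters, which favours genes with several. The letters TCACNCCA, a core of the sterol regulatory element, were found in 3 of the 25, against 3.67% of all 32851 promoters of that table. CCAAT, the NF-Y box, was found in 20 of 25, among them 14 of the 15 synthesis enzymes with a promoter, against 33.8% of all. GGGCGG, a GC box, was also found in 20 of 25 and in 14 of 15 synthesis enzymes, against 32.7% of all. A match describes letters and is no proof of a site. The 3 promoters with the sterol element core are shown 5′ to 3′ on the strand of the gene, with the TCACNCCA and CCAAT matches of either strand in capitals (CCAAT on the other strand reads ATTGG). Hmgcs1 lies at chr13:119690101-119690350 (plus strand), Msmo1 at chr8:64733579-64733828 (minus strand) and Srebf2 at chr15:82147019-82147268 (plus strand).
Hmgcs1: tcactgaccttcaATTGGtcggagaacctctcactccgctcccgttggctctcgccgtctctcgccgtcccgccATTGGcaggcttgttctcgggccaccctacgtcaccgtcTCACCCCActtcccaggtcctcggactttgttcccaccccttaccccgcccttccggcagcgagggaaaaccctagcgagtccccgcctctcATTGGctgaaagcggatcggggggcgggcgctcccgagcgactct
Msmo1: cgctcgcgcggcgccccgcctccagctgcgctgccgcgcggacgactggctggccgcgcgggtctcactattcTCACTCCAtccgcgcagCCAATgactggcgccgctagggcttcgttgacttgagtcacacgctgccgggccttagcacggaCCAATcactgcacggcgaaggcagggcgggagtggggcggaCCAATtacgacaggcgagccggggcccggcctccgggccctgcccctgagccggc
Srebf2: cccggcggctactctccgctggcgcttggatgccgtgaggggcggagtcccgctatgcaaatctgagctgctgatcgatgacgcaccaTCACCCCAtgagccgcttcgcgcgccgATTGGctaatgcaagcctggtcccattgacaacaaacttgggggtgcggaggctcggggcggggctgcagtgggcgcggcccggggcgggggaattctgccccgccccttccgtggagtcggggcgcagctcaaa

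Levels of different genes were compared per length, as transcripts per 1000000 (TPM) recomputed from the counts and the deposited transcript lengths. In placebo control cortex the highest of the 32 was Scd2, the main stearoyl-CoA desaturase of brain, at 574 ± 337 TPM (SD, n = 3), followed by Cyp46a1, the cholesterol 24-hydroxylase, at 328 ± 160 TPM. The 2 neighbours in that order overlapped between libraries (189 to 815 and 153 to 466 TPM). Srebf2 stood at 153 ± 76 TPM and Hmgcs1, which makes HMG-CoA, at 145 ± 34 TPM, also with overlapping ranges. Msmo1, the sterol C4 demethylase, had 101 ± 14 TPM. The low end held Abca1 at 11.04 ± 5.4 TPM, Nr1h3, which encodes LXRα, at 6.9 ± 3.6 TPM and Idi1, the isopentenyl diphosphate isomerase, at 1.7 ± 0.34 TPM. Nr1h2, which encodes LXRβ, stood far above Nr1h3, at 110.1 ± 32 TPM. Idi1 had 541 counts over all 36 libraries, so its values carry little precision.

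Sorted control microglia had another order. Nr1h2 was highest at 165 ± 5.2 TPM, followed by Abca1, the exporter of cholesterol to apolipoproteins, at 131 ± 5.3 TPM and Abcg1, its partner that loads lipoprotein particles, at 107 ± 15 TPM. Scd2 came next at 107 ± 20 TPM, overlapping Abcg1. Ebp, a sterol isomerase, had 77 ± 3.6 TPM, Scap 73 ± 2.0 TPM and Soat1, which esterifies cholesterol, 68 ± 9.3 TPM. Sqle, the squalene epoxidase, had 2.6 ± 0.96 TPM, Scd1 1.8 ± 0.96 TPM and Hsd17b7 1.2 ± 0.19 TPM.

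On the CPM scale, with each library of one set set against each of the other, 5 of the 32 genes (15.6%) were higher in all 3 control microglia libraries than in all 3 placebo control cortex libraries, namely Abca1, Abcg1, Nr1h2, Soat1 and Ebp. Of 15329 genes 33.2% were so. Lower without overlap were 23 of the 32 (71.9%), against 44.3% of all genes, and among them were 15 of the 18 synthesis enzymes, Srebf2, Insig1, Fasn, Scd1, Scd2, Nr1h3, Stard4 and Cyp46a1. Abca1 had 518, 543 and 503 CPM in the microglia libraries and 43.8, 52.3 and 23.0 CPM in the cortex libraries. Soat1 had 108, 137 and 135 CPM in microglia and 26.0, 24.2 and 15.7 CPM in cortex. Hmgcs1 went the other way, with 31.1, 32.7 and 36.3 CPM in microglia and 203, 185 and 175 CPM in cortex. Sqle had 3.9, 1.8 and 2.5 CPM in microglia against 54.2, 35.7 and 40.4 CPM in cortex, and Cyp46a1, a neuronal gene, had 6.0, 2.6 and 3.7 CPM against 330.1, 269 and 150.4 CPM. Every microglia library thus lay apart from every cortex library for these 5 genes. Of the synthesis enzymes Fdft1, Dhcr7 and Ebp were not lower. Fdft1, the squalene synthase, overlaps Ctsb on the opposite strand by 773 bases, Ctsb had 2752 CPM in control microglia, and no source names the strand setting of the counting, so that reads of the 2 genes cannot be told apart in the 58.0 CPM of Fdft1. Sorted cells and frozen tissue were prepared in different ways, which cannot be told apart from cell type here.

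**Figure D1:**
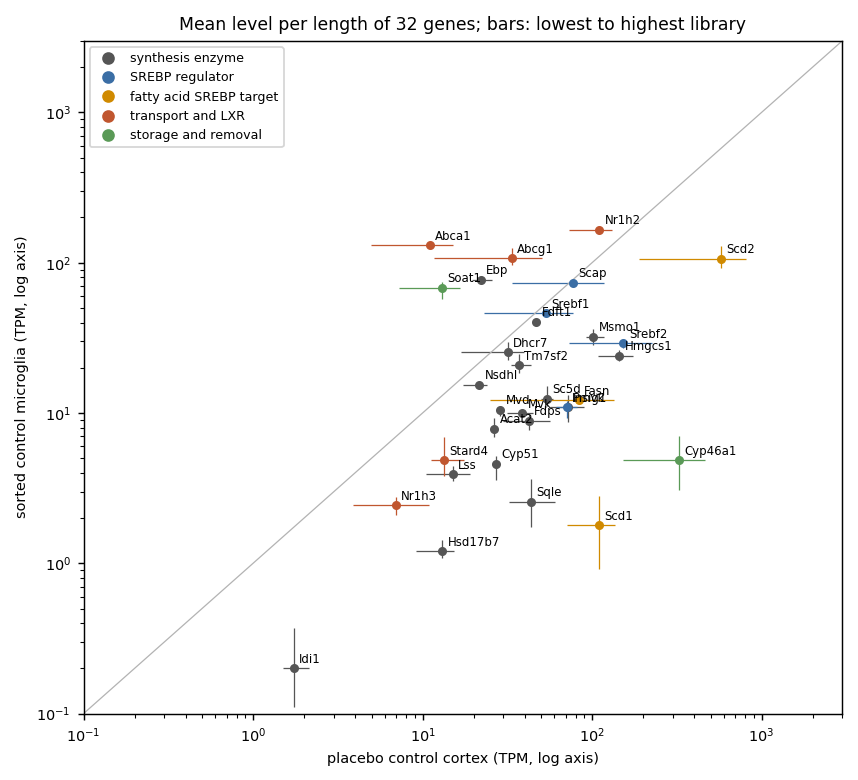
Mean TPM of the 32 genes in sorted control microglia (vertical, log axis) against placebo control cortex (horizontal, log axis), with bars from the lowest to the highest of 3 libraries, coloured by role, and a grey line of equal level. Abca1, Abcg1, Soat1 and Ebp lie above the line, while Scd1, Cyp46a1 and Sqle lie far below it.

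Between the regions of placebo control mice, few of the 32 genes passed edgeR's quasi-likelihood test at an adjusted p under 0.05 over all genes tested. In corpus callosum against cortex only Scd1 (chr19:44394450-44407709), a stearoyl-CoA desaturase, was called, as higher, where 2.94% of 16080 genes were called. Scd1 had 560, 350.0 and 485 CPM in corpus callosum and 195, 225 and 155 CPM in cortex. The groups did not overlap, and the log2 difference was 1.16 ± 0.30 (SE, adjusted p = 0.0301, edgeR). The call was lost without any single library of either group except corpus callosum 2 (log2 0.95 to 1.29) and without the libraries of low assignment (1.01, adjusted p = 0.18). Scd2, which is similar in sequence and may share reads with Scd1, had 2351, 1502 and 1497 CPM in corpus callosum and 1451, 1331 and 468 CPM in cortex and was not called (0.60, 95% interval -0.19 to 1.39). All 12 oligodendrocyte markers were called higher in corpus callosum too, and their part in the Scd1 value was not tested.

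In striatum against cortex 2 of the 32 genes were lower and none higher, where 12.9% of 16080 genes were called. Insig1 (chr5:28071412-28078662), which retains SREBP in the endoplasmic reticulum and is itself a target of it, had 34.5 and 40.9 CPM in striatum and 60.9, 54.9 and 98.0 CPM in cortex. Its log2 difference was -0.94 ± 0.26 (adjusted p = 0.0166, edgeR). Tm7sf2 (chr19:6062821-6067850), a sterol C14 reductase, had 11.6 and 11.8 CPM in striatum and 15.9, 17.2 and 29.1 CPM in cortex (-0.85 ± 0.27, adjusted p = 0.0343, edgeR). Neither gene overlapped between the regions, but cortex library 3, of low assignment, was the highest for both, and without it neither was called (-0.65 with adjusted p = 0.11 and -0.54 with adjusted p = 0.22). Without either striatum library the calls were lost too, at -0.80 and -1.10 for Insig1 and -0.81 and -0.89 for Tm7sf2. Tm7sf2 shares 9 bases with Vps51. Of the 18 synthesis enzymes 16 had values below 0, with a median of -0.49, while the median over all genes was -0.07 and 54.0% of them lay below 0. These enzymes share SREBP control and libraries, so their values can move together. Here and below, their signs are not separate observations, and the share of all genes is no test of such counts. Without the libraries of low assignment 18 of the 18 lay below 0. In that fit neither Insig1 (-0.65, adjusted p = 0.090, edgeR) nor Tm7sf2 (-0.54, adjusted p = 0.18, edgeR) was called.

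In corpus callosum against striatum Cyp46a1 (chr12:108334316-108362234) was the 1 gene called, as lower, where 6.09% of 16080 genes were called. It had 181, 188 and 155 CPM in corpus callosum and 353 and 436 CPM in striatum. The groups did not overlap, with a log2 difference of -1.26 ± 0.32 (adjusted p = 0.0148, edgeR). Leaving out any of the 3 callosum libraries or striatum library 2 raised the adjusted p to between 0.0504 and 0.24, with log2 values from -1.36 to -1.07. All 18 synthesis enzymes had values above 0 (median 0.41), where the median over all genes was 0.09 and 43.6% lay below 0. With 1 library left out, 1 to 3 of the 18 lay below 0. Their summed level was 816, 714 and 719 CPM in the callosum libraries, 518 and 526 CPM in striatum, and 694, 673 and 781 CPM in cortex. Striatum thus had the lowest sums of the 3 regions, without overlap, and callosum and cortex overlapped. With few libraries a group, how often other gene sums separate in this way was not counted. None of the 18 was called in this comparison, and 5 had an unadjusted p under 0.05, as had 18.8% of all genes. DESeq2 called 2 of the 32 genes there, Cyp46a1 and Insig1.

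**Figure D2:**
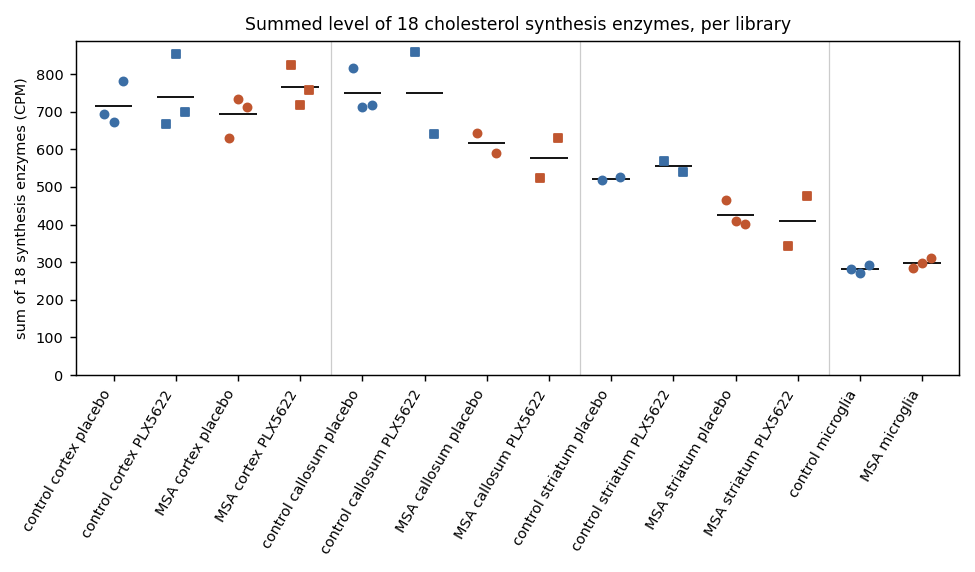
Sum of the 18 synthesis enzymes in CPM for each library, by group, with controls in blue, MSA in orange, circles for placebo chow or sorted cells, squares for PLX5622 and a black line at the group mean. The striatum and microglia groups lie below the cortex groups, and the MSA sums of corpus callosum and striatum lie mostly below those of their controls.

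The genotype comparison asked what the transgene did to these genes in each tissue. In placebo mice none of the 32 was called by edgeR in any region. In cortex 0 of 14600 genes were called at all (0%), 514 had an unadjusted p under 0.05, and DESeq2 called 3 genes, none of them among the 32. In corpus callosum 51 of 15881 genes (0.321%) and in striatum 5 of 14872 (0.0336%) were called. Unadjusted p-values under 0.05 were held by 2 of the 32 genes in cortex, 6 in corpus callosum and 3 in striatum, beside 3.52%, 8.53% and 3.75% of all genes. A p that misses the threshold does not show that levels were equal, and the 95% intervals in the plot of MSA against control mice show how large a change remains possible.

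The exporter Abca1 (chr4:53030789-53159895) had the smallest p of the 32 in placebo corpus callosum and in placebo striatum. In placebo corpus callosum it had 119 and 123 CPM in MSA mice and 49.2, 61.4 and 73.0 CPM in controls. The groups did not overlap, and the log2 difference was 1.00 ± 0.24 with a 95% interval from 0.47 to 1.54 (adjusted p = 0.20, edgeR). The call depended on the tool and the libraries used: the adjusted p was 0.0350 with DESeq2, 0.0184 without the libraries of low assignment and 0.0228 with only the 2 compared groups in the fit. In placebo striatum Abca1 had 69.1, 121 and 108 CPM in MSA mice and 55.0 and 70.2 CPM in controls, so that the groups overlapped (0.68 ± 0.26, interval 0.10 to 1.25, adjusted p = 1.00). In cortex it had 53.2, 59.95 and 52.9 CPM in MSA mice and 43.8, 52.3 and 23.0 CPM in controls (0.48, interval -0.12 to 1.09). With PLX5622 it had 156 and 96.1 CPM in MSA callosum and 59.4 and 79.4 CPM in control callosum (0.77 ± 0.27, interval 0.17 to 1.37, adjusted p = 0.83, edgeR). The MSA library at 156 CPM was of low assignment. Microglia markers summed to between 171 and 214 CPM in these MSA libraries and to between 2.5 and 12.3 CPM in these controls. The part of either in this Abca1 value was not tested.

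Soat1 (chr1:156428108-156474328) had 49.1 and 48.1 CPM in placebo MSA callosum and 26.3, 27.6 and 22.4 CPM in controls, without overlap (0.95 ± 0.31, interval 0.27 to 1.64, adjusted p = 0.39, edgeR). Srebf1, whose SREBP-1c form drives fatty acid synthesis, had 239 and 227 CPM in placebo MSA callosum and 182, 102 and 131 CPM in controls (0.77 ± 0.28, adjusted p = 0.47, edgeR). In placebo cortex Srebf1 had 129, 129 and 136 CPM in MSA mice and 109, 87.7 and 44.8 CPM in controls (0.70 ± 0.29, interval 0.07 to 1.33, adjusted p = 0.83). The MSA libraries were the higher ones in both regions, none was called, and Srebf1 shares 112 bases with Rai1 on the opposite strand. Abcg1 had 120.4 and 116 CPM in placebo MSA callosum and 113, 75.6 and 80.6 CPM in controls (0.42, interval -0.44 to 1.28). Other cell types differed in the same libraries. In placebo callosum choroid plexus markers summed to 8184 and 3187 CPM in MSA mice against 250 to 344 CPM in controls, with all 8 called higher. Without overlap too, and with none called, microglia markers summed to 807 and 662 CPM against 444 to 480 CPM, astrocyte markers to between 7382 and 9218 CPM against 5900 to 6485 CPM, endothelial markers to between 117 and 129 CPM against 70.5 to 99.2 CPM, and meningeal fibroblast markers to between 37.6 and 42.9 CPM against 18.3 to 23.4 CPM. Oligodendrocyte markers overlapped, at 21734 and 16061 CPM against 17500 to 32633 CPM with none called. Their part in the Abca1, Soat1 and Srebf1 values was not tested. In bulk tissue fewer cells of a type and less RNA per cell cannot be told apart.

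The synthesis enzymes had values mostly below 0 in MSA against control corpus callosum and striatum and on both sides of 0 in cortex. In placebo corpus callosum 16 of 18 lay below 0 with a median of -0.26, where the median of all genes was 0.01 and 49.6% lay below 0. In placebo striatum 15 of 18 lay below 0 (median -0.24), against 47.7% of all genes. In cortex 9 of 18 did (median -0.03), against 48.5%. None of the 18 was called. The 18 enzymes share SREBP control and were read from the same libraries, so their values can move together. Their signs are therefore not 18 separate observations, and the shares of all genes are no test of these counts. The summed level was 645 and 590.0 CPM in MSA callosum against 816, 714 and 719 CPM in controls, and 465, 408 and 401 CPM in MSA striatum against 518 and 526 CPM in controls. These sums did not overlap in either region. The groups held few libraries each, and how often other gene sums separate in this way was not counted. In cortex the enzyme sums were 630.0, 735 and 714 CPM in MSA mice and 694, 673 and 781 CPM in controls, and overlapped. Leaving out 1 library at a time gave 14 to 16 of 18 below 0 in placebo callosum and 13 to 16 of 18 in placebo striatum, and leaving out the libraries of low assignment gave 16 of 18 in callosum.

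Within the pathway, Msmo1 and Sc5d, which act late in the sterol branch, had the smallest p among the synthesis enzymes of placebo callosum. Sc5d, the lathosterol oxidase, had 34.7 and 36.4 CPM in MSA mice and 44.8, 46.2 and 57.5 CPM in controls, without overlap (-0.46, interval -0.90 to -0.03, adjusted p = 0.56, edgeR). Msmo1 had 61.8 and 46.8 CPM in MSA mice and 85.8, 59.5 and 102.7 CPM in controls, with overlap (-0.58, interval -1.15 to -0.01). In placebo striatum Fdft1 had 38.5, 33.3 and 34.6 CPM in MSA mice and 46.1 and 66.5 CPM in controls (-0.66, interval -1.24 to -0.08). Its overlap with Ctsb on the opposite strand holds in bulk tissue too, and reads of Ctsb may be part of this value. Scd1 had 261, 169 and 124 CPM in MSA striatum against 304 and 282 CPM in controls (-0.65, interval -1.26 to -0.04). Oligodendrocyte markers summed to 11180, 8790 and 6453 CPM in those MSA striatum libraries and to 14441 and 13448 CPM in the controls, none called, in the same order of groups as Scd1. Whether this moved the values was not tested. In placebo cortex Pmvk, the phosphomevalonate kinase, had 16.4, 22.1 and 19.96 CPM in MSA mice and 26.4, 22.9 and 48.4 CPM in controls (-0.72, interval -1.37 to -0.07), the highest being the control library of low assignment.

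**Figure D3:**
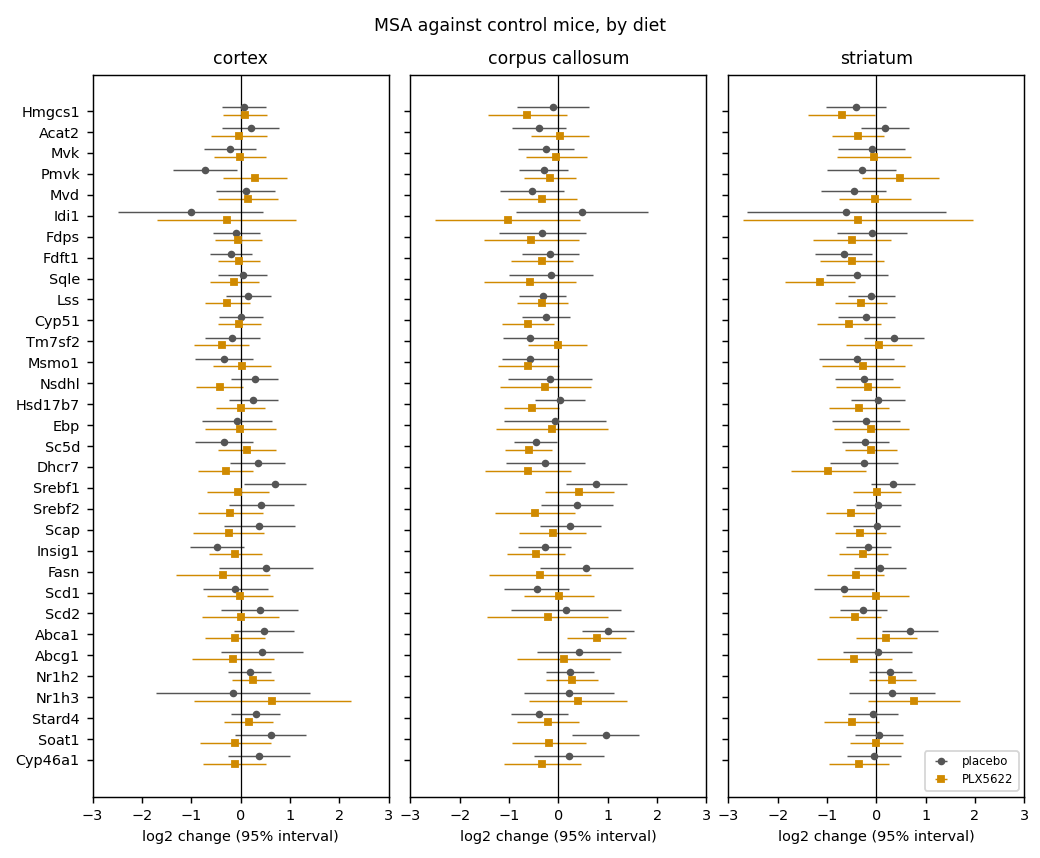
Log2 change of each of the 32 genes in MSA against control mice, with 95% intervals, in cortex, corpus callosum and striatum, on placebo (grey circles) and PLX5622 chow (orange squares). No gene was called, Abca1 lies above 0 with its interval in placebo callosum and striatum and in PLX5622 callosum, and most synthesis enzymes (top 18) lie below 0 in callosum and striatum.

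With PLX5622 in the chow of both genotypes, none of the 32 genes was called by the edgeR fit reported or by DESeq2. Called were 22 of 14600 genes in cortex (0.151%), 31 of 15881 in callosum (0.195%) and, in striatum, 33 of 14872 (0.222%). Of the 32 genes 0 in cortex, 3 in corpus callosum and 4 in striatum had an unadjusted p under 0.05, beside 2.82%, 4.46% and 11% of all genes. In striatum Sqle (chr15:59315092-59331193), which commits squalene to sterols, had 8.1 and 18.2 CPM in MSA mice and 30.9 and 28.3 CPM in controls, without overlap (-1.15 ± 0.32, interval -1.86 to -0.44, adjusted p = 0.43, edgeR). Dhcr7, which makes cholesterol from 7-dehydrocholesterol, had 17.4 and 26.5 CPM against 33.8 and 52.5 CPM (-0.97 ± 0.35, interval -1.74 to -0.21, adjusted p = 0.44, edgeR). Hmgcs1 had 46.9 and 99.3 CPM against 141 and 100.0 CPM (-0.71, interval -1.38 to -0.03). MSA library 2, of low assignment, was the lowest for all 3 genes. With replicate number as a block, edgeR called Dhcr7, Sqle and Srebf2 in striatum, among 1908 genes called. In corpus callosum Cyp51, the lanosterol demethylase, had 34.3 and 34.5 CPM in MSA mice and 54.5 and 44.7 CPM in controls (-0.62, interval -1.15 to -0.09, adjusted p = 0.98, edgeR). Sc5d had 38.6 and 39.5 CPM against 55.2 and 56.8 CPM, without overlap (-0.61, interval -1.08 to -0.14, adjusted p = 0.83, edgeR). Of the 18 synthesis enzymes 17 lay below 0 in callosum (median -0.44), 16 in striatum (median -0.34) and 12 in cortex (median -0.03), against 53.9%, 49.3% and 54.3% of all genes. Without the libraries of low assignment the counts were 17, 11 and 13, and with no low-count filter the cortex count was 7. Without control callosum library 1 the callosum count was 10. In cortex the 3 genes of smallest p were Nsdhl (-0.42, interval -0.90 to 0.05), Tm7sf2 (-0.38, interval -0.94 to 0.18) and Nr1h2 (0.25, interval -0.18 to 0.68).

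The diet comparison asked what the removal of microglia did to these genes. In control mice none of the 32 was called by edgeR or DESeq2, although all 10 microglia markers were called lower in every region. The calls over all genes were 71 among 14600 in cortex (0.486%), 73 among 15881 in callosum (0.46%) and 50 among 14872 in striatum (0.336%). Among the 32 genes 1 in cortex, 0 in corpus callosum and 2 in striatum had an unadjusted p under 0.05, beside 2.86%, 3.91% and 2.25% of all genes. Genes that were high in sorted microglia were not called lower in the tissue. Microglia markers summed to 476 CPM in placebo control cortex and to 46302 CPM in sorted control microglia. The microglial part of the tissue levels was not measured, and a small fall would lie within the intervals given next. Abca1 had 34.6, 39.7 and 45.1 CPM with PLX5622 in control cortex and 43.8, 52.3 and 23.0 CPM on placebo, and 55.7 and 75.0 CPM against 55.0 and 70.2 CPM in control striatum. Soat1 had 28.7, 17.9 and 31.1 CPM with PLX5622 in control cortex and 26.0, 24.2 and 15.7 CPM on placebo. These groups overlapped, and the log2 changes were 0.02 (interval -0.59 to 0.63) for Abca1 and 0.26 (interval -0.46 to 0.98) for Soat1 in control cortex.

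The genes of smallest p in control mice mostly had positive values. Nsdhl, a sterol dehydrogenase, had 23.9, 28.3 and 20.8 CPM with PLX5622 in cortex and 17.3, 17.7 and 17.4 CPM on placebo, without overlap (0.49, interval 0.02 to 0.97). Stard4, a sterol carrier, had 25.5, 39.0 and 31.98 CPM against 20.1, 31.6 and 27.0 CPM in cortex (0.32, interval -0.18 to 0.82). In striatum Acat2, which starts the pathway from acetyl-CoA, had 24.8 and 20.7 CPM against 15.5 and 16.0 CPM (0.56, interval 0.03 to 1.09), and Insig1 had 50.5 and 55.0 CPM against 34.5 and 40.9 CPM (0.51, interval 0.02 to 1.01), both without overlap, followed by Lss, the lanosterol synthase (0.32, interval -0.21 to 0.84). The adjusted p was 1.00 for each of these values (edgeR). In corpus callosum Insig1 had 78.9 and 112 CPM against 82.4, 53.3 and 74.7 CPM (0.42, interval -0.11 to 0.96), Idi1 0.93 (interval -0.39 to 2.25) and Hsd17b7 0.32 (interval -0.18 to 0.82). Synthesis enzymes lay above 0 in 13 of 18 cases in cortex (median 0.14), 8 of 18 in corpus callosum (median -0.04) and 12 of 18 in striatum (median 0.08), where 46.7%, 47.2% and 49.2% of all genes lay below 0. The callosum count turned on PLX5622 library 2: those below 0 were 10 of 18, and 5 without it or 6 without the libraries of low assignment. In cortex those below 0 were 5, and 2 without placebo library 3 or 1 without the libraries of low assignment. In cortex Pmvk had the third smallest p, at -0.36 (interval -1.01 to 0.29), and took the other sign (0.036) without placebo library 3.

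In MSA mice none of the 32 genes was called for the diet by the edgeR fit reported or by DESeq2. Called were 8 of 14600 genes in cortex (0.0548%), 11 of 15881 in callosum (0.0693%) and, in striatum, 11 of 14872 (0.074%). An unadjusted p under 0.05 was held by 0, 2 and 0 of the 32 genes, beside 4.42%, 8.48% and 13.8% of all genes. In corpus callosum Soat1 had 22.8 and 29.9 CPM with PLX5622 and 49.1 and 48.1 CPM on placebo, without overlap (-0.99 ± 0.34, interval -1.76 to -0.23, adjusted p = 0.58, edgeR). Srebf2, the master regulator of the synthesis enzymes, had 160 and 185 CPM against 287 and 306 CPM (-0.90 ± 0.37, interval -1.71 to -0.08, adjusted p = 0.58, edgeR). Fasn, the fatty acid synthase, had 207 and 272 CPM against 399 and 431 CPM (-0.90, interval -1.95 to 0.14). All 3 genes had every PLX5622 library below every placebo library. These groups held 2 libraries each, and the share of all genes separated in this way was not counted. The choroid plexus sum also separated these groups, with 405 and 453 CPM on PLX5622 against 8184 and 3187 CPM on placebo and 5 of 8 markers called lower, and 1 of the 2 PLX5622 libraries was of low assignment. The part of either in these values was not tested. In cortex Pmvk (0.65, interval -0.01 to 1.30), Abca1 (-0.58, interval -1.19 to 0.03) and Srebf1 (-0.59, interval -1.22 to 0.04) had the smallest p. In striatum Sqle had 8.1 and 18.2 CPM with PLX5622 and 23.7, 20.6 and 19.1 CPM on placebo (-0.64, interval -1.30 to 0.02). Nr1h3 (0.78, interval -0.07 to 1.62) and Insig1 (0.42, interval -0.04 to 0.87) followed. With replicate number as a block, edgeR called Scd1 in striatum, among 1349 genes called.

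**Figure D4:**
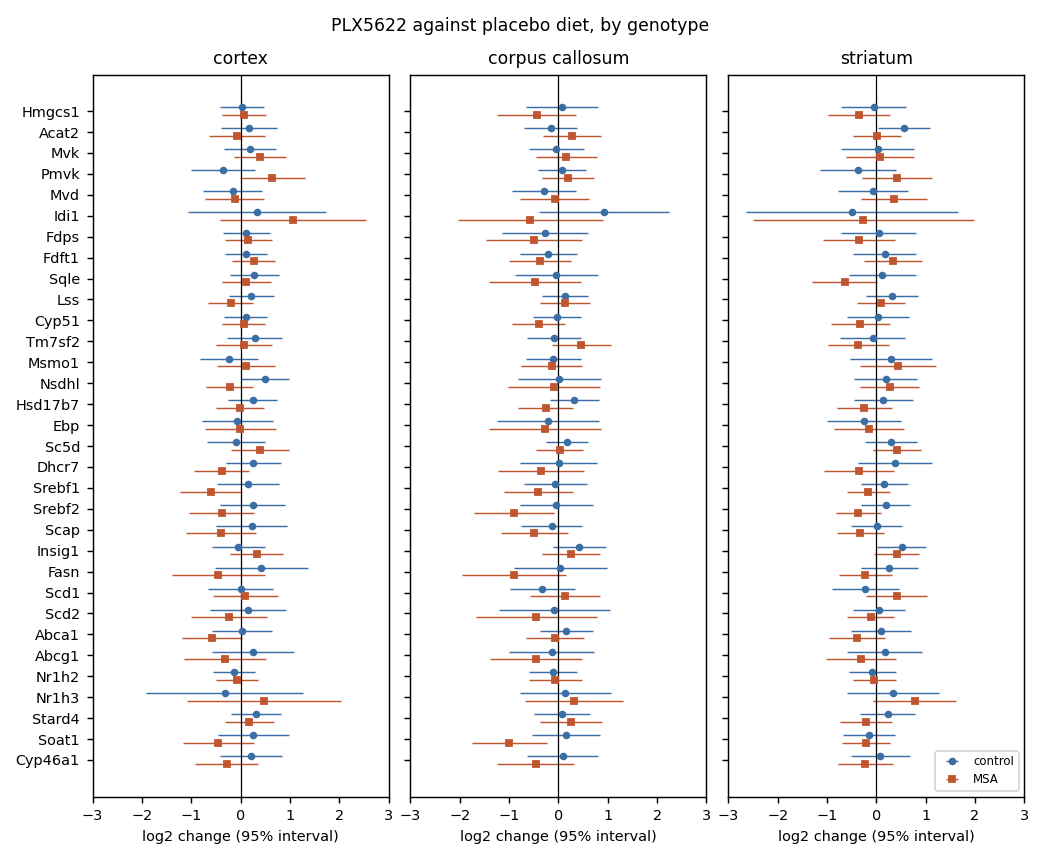
Log2 change of each of the 32 genes with PLX5622 against placebo chow, with 95% intervals, in cortex, corpus callosum and striatum of control (blue circles) and MSA mice (orange squares). No gene was called, and only a few intervals, such as those of Soat1 and Srebf2 in MSA callosum, leave 0 out.

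Whether the diet acted alike in both genotypes was tested by the interaction, the change with PLX5622 in MSA mice minus that in controls. None of the 32 genes was called by edgeR or DESeq2. Called were 14 of 14600 genes in cortex (0.0959%), 42 of 15881 in callosum (0.264%) and, in striatum, 13 of 14872 (0.0874%), and 2, 1 and 0 of the 32 genes had an unadjusted p under 0.05, beside 3.77%, 4.7% and 5% of all genes. In cortex Pmvk (1.01, interval 0.09 to 1.93), Nsdhl (-0.71, interval -1.39 to -0.03) and Srebf1 (-0.75, interval -1.64 to 0.14) had the smallest p. In corpus callosum Soat1 had the smallest, at -1.15 ± 0.46 (interval -2.17 to -0.12, adjusted p = 0.96, edgeR), with control values of 37.3 and 18.8 CPM on PLX5622 chow. It was called (-1.59, adjusted p = 0.0401) without the second of these libraries, which was of low assignment. Srebf2 (-0.85, interval -1.94 to 0.24) and Hsd17b7 (-0.57, interval -1.32 to 0.18) followed. In striatum Srebf2 (-0.56, interval -1.24 to 0.12), Sqle (-0.76, interval -1.70 to 0.19) and Acat2 (-0.55, interval -1.27 to 0.17) came first.

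The exporters Abca1 and Abcg1 had higher TPM in every sorted microglia library than in any bulk tissue library. In MSA against control sorted microglia none of the 31 genes tested was called by edgeR, where 72 of 11810 genes were (0.61%). Of the 31 genes 3 had an unadjusted p under 0.05, beside 10.7% of all genes. DESeq2 called 2 of the 32, and 174 genes in all. Abcg1 (chr17:31057694-31117981) had 363, 339 and 367 CPM in MSA microglia and 284, 226 and 216 CPM in controls. Abca1 had 636, 687 and 811 CPM in MSA microglia and 518, 543 and 503 CPM in controls. Soat1 had 154, 165 and 142 CPM in MSA microglia and 108, 137 and 135 CPM in controls. Each MSA library lay above each control library for all 3 genes. The log2 differences were 0.52 ± 0.099 for Abcg1 (interval 0.29 to 0.74, adjusted p = 0.0593, edgeR), 0.40 ± 0.082 for Abca1 (interval 0.22 to 0.59, adjusted p = 0.0604, edgeR) and 0.24 ± 0.098 for Soat1 (interval 0.02 to 0.46, adjusted p = 0.42, edgeR). With DESeq2 the adjusted p was 0.000229 for Abcg1 and 0.000983 for Abca1, and with no low-count filter in edgeR it was 0.000712 and 0.000559, so that both were called there.

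Without overlap between genotypes, 6 of the 31 microglia genes above the level minimum (19.4%) were higher in MSA mice, against 12.5% of 12303 genes, and 0 were lower, against 5.14% of them. Besides the 3 above these were Cyp51, Hsd17b7 and Srebf1. Cyp51 had 10.2, 9.9 and 10.4 CPM in MSA microglia and 6.2, 8.4 and 8.7 CPM in controls (0.34, interval -0.05 to 0.73). Srebf1 had 88.9, 81.5 and 88.9 CPM and 81.0, 73.6 and 78.1 CPM. The synthesis enzymes as a whole stayed close: they summed to 284, 299 and 312 CPM in MSA microglia and 283, 272 and 293 CPM in controls, which overlapped, and 11 of the 17 tested lay above 0 (median 0.16), where the median of all genes was 0.01. The microglia marker sum was 44770 to 46190 CPM in MSA and 45193 to 47149 CPM in control libraries. Choroid plexus markers summed to 844 to 1607 CPM in MSA and 519 to 1173 CPM in control microglia. Astrocyte markers summed to 206 to 236 CPM and 180 to 234 CPM, and both sums overlapped between genotypes. The 12 oligodendrocyte markers summed to 116 to 133 CPM in MSA and 134 to 185 CPM in control microglia, lower without overlap. The 6 oligodendrocyte precursor markers went the other way, at 11.4 to 12.1 CPM in MSA and 1.5 to 2.3 CPM in control microglia, without overlap. As few as 4 of these 6 were detected in an MSA library. Of these 6 only Cspg4 passed the low-count filter, and with control sums this low it passed through its level in the MSA libraries. It was called higher (4.64 ± 0.29, adjusted p = 3.03e-05, edgeR), which says nothing of the other precursor markers. The part of these markers in the values of the 32 genes was not tested.

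**Figure D5:**
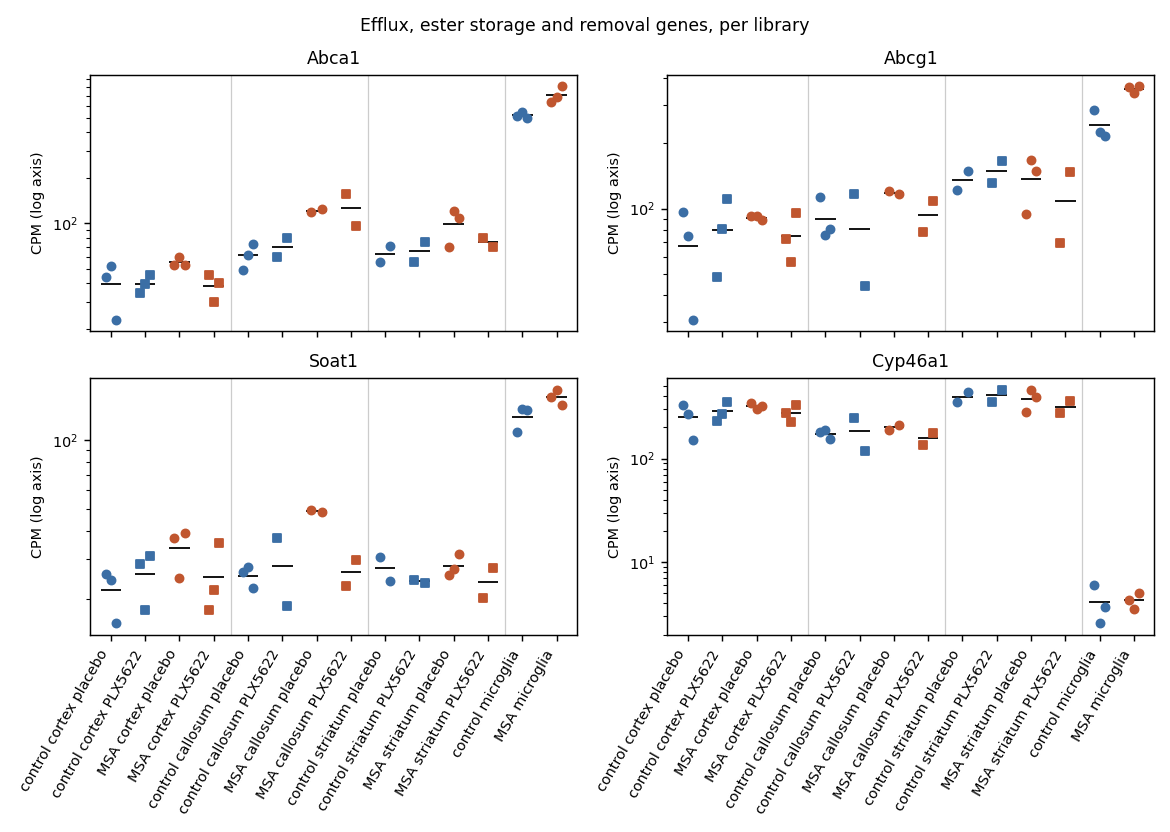
CPM of Abca1, Abcg1, Soat1 and Cyp46a1 in each library on log axes, with controls in blue, MSA in orange, circles for placebo chow or sorted cells, squares for PLX5622 and a black line at the group mean. Abca1, Abcg1 and Soat1 are highest in sorted microglia, where the MSA libraries lie above the controls, and Cyp46a1 is near the bottom there.

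A further 51 genes of sterol synthesis, lipoprotein uptake, lipid particles and fatty acid synthesis were counted beside the 32. None of them was called by edgeR in any genotype, diet or interaction comparison of bulk tissue. There 1 to 9 had an unadjusted p under 0.05, beside 2.25% to 13.8% of all genes. DESeq2 was not counted for them. In sorted microglia 43 were tested and 1 was called higher, where 0.61% of all genes were called. This was Nceh1, a hydrolase of stored cholesterol esters and so the counterpart of Soat1. It rose by 1.37 ± 0.12 on the log2 scale (adjusted p = 0.000437, edgeR), with 58.1 ± 4.5 CPM in MSA and 21.7 ± 3.4 CPM in control microglia (SD, n = 3 each). Lpl, the lipoprotein lipase gene, had 83.2 ± 15.9 CPM in MSA and 11.4 ± 5.2 CPM in control microglia, without overlap, and was not called (2.87, interval 1.97 to 3.77, adjusted p = 0.0593, edgeR). Apoe, which encodes the main apolipoprotein of brain, was not called either (1.57 ± 0.21, adjusted p = 0.0593, edgeR). The 14 efflux, lipid particle and oxysterol genes together summed to between 3080 and 3281 CPM in MSA and between 1328 and 1781 CPM in control microglia, without overlap. Between regions all 51 were tested. In corpus callosum 6 were called higher than in cortex and none lower, where 2.94% of all genes were called, led by Fa2h, which makes the hydroxylated lipids of myelin (2.81), Apod, an apolipoprotein of glia (2.08), Elovl1 (1.55) and Elovl7 (2.38), both elongases of long-chain fatty acids. In striatum against cortex 9 were higher, Fa2h (2.67) and Lpl (2.27) among them, and 3 lower, led by Osbpl1a (-1.56), where 12.9% of all genes were called. In corpus callosum against striatum 2 were higher and 4 lower, led by Lpl (-2.81), where 6.09% of all genes were called. The callosum and striatum calls came with the higher oligodendrocyte marker sums given above, and the part of cell composition in them was not tested. The 12 further synthesis genes had medians of -0.18 in placebo MSA callosum and -0.20 in placebo MSA striatum, beside -0.26 and -0.24 for the 18 enzymes above.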

How the data were processed

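Poly(A) RNA-seq was deposited for 36 libraries. The tools named in the submitters' processing notes are STAR, HOMER and DESeq2, with genome build mm10 and without a version or counting setting. What the authors deposited are raw read counts (whole numbers without normalisation) and a transcript length for each gene. A TPM table was not used here, since TPM keep no depth.

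Counts assigned to genes were scaled with TMM, filtered with filterByExpr (minimum count 10) and tested with the robust quasi-likelihood test of edgeR 4.0.16 in R 4.3.3. Tests were 2-sided, with Benjamini-Hochberg adjusted p under 0.05 over all genes tested as the threshold. Each region was fitted with its 4 groups, microglia alone, and regions against each other on all 30 bulk libraries. CPM are counts per 1000000 assigned. Groups did not overlap where every library of 1 lay above every library of the other, counted among genes with a mean of at least 1 CPM. TPM were recomputed from counts and lengths for comparing genes. Errors of log2 changes are standard errors, with 95% intervals. The tests were tested on simulated data. Chi-square per degree of freedom between libraries of a group was 4.98 to 142 over 30 pairs, so no pair was a copy.

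Genes were named by a rule: all called, or the 3 of smallest p where none was, and up to 4 of the further pathway genes by p. The 32 genes, the lists and the tests were chosen with earlier results of these data known. Alternatives were DESeq2 1.42.0, RLE size factors, no filter, a replicate block, leaving out each library, fitting only the compared groups, and dropping libraries of low assignment or the control striatum PLX5622 libraries.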

Additional observations from a re-analysis of the deposited data

How the results depend on the processing

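The count of the 32 genes called was the same in 19 of 19 comparisons with RLE size factors and moved in these cases. In placebo callosum, MSA against control, it was 0, and 1 with DESeq2 and 1 without the libraries of low assignment (Abca1), and 2 with only the compared groups (Abca1 and Soat1). In microglia it was 0, and 2 with DESeq2 and 2 with no filter (Abca1 and Abcg1), and 0 to 1 without 1 library (Abcg1 without control 1, Abca1 without MSA 1). The callosum interaction gave 0 to 1 without 1 library (Soat1 without control PLX5622 library 2). In callosum against cortex the 1 call became 0 without the libraries of low assignment and 0 with only the compared groups, with 0 to 1 without 1 library. In striatum against cortex the 2 calls became 4 with DESeq2, 1 with no filter, 0 with only the compared groups and 0 to 5 without 1 library (5 without cortex 1, 0 without cortex 3 or either striatum library). In callosum against striatum the 1 call became 2 with DESeq2, 3 without the libraries of low assignment (Cyp46a1, Fdps and Sqle), 7 with only the compared groups and 0 to 1 without 1 library. Insig1 and Tm7sf2 both lost their call in striatum against cortex without the libraries of low assignment, where others of the 32 genes were called. The causes were not tested. Pmvk in control cortex (diet, -0.36) was 0.13 without the libraries of low assignment and -0.56 to 0.036 without 1 library, above 0 only without placebo library 3. Of the other values of named genes 573 kept direction and side of the threshold, 23 lost their call and 14 gained one.

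Same-numbered libraries did not deviate together in every pair, and 2 of 12 cortex, 2 of 9 callosum, 6 of 9 striatum and 2 of 6 microglia libraries correlated best with their own number. Deviations were taken from the group mean, so the libraries of a group of 2 mirror each other. These counts therefore cannot decide whether equal numbers mark pairs. The replicate block gave 3 calls for MSA against control striatum with PLX5622 (Dhcr7, Sqle and Srebf2), where it called 1908 of 14872 genes. For the diet in MSA striatum it gave 1 call (Scd1), where it called 1349 of 14872 genes. It gave 1 call in microglia (Abcg1) and 1 for striatum against cortex (Insig1). The fits reported called 0.61% and 12.9% of all genes in these last comparisons.

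Counts over all genes moved more. Without 1 library they ran from 0 to 824 for the diet in MSA striatum (11 in the fit reported), 7 to 54 for MSA against control in placebo callosum (51), 20 to 384 for the callosum interaction (42), 31 to 170 in microglia (72), 207 to 686 for callosum against striatum (980) and 753 to 2388 for striatum against cortex (2077). Under the other alternatives the highest were 1349, 273, 160, 254, 2595 and 2555. For MSA against control striatum with PLX5622 (33) the alternatives ran from 15 to 1908. Over every alternative, counts for MSA against control ran from 0 to 3 in placebo cortex (0), 12 to 46 in PLX5622 cortex (22), 0 to 122 in PLX5622 callosum (31) and 0 to 29 in placebo striatum (5). For the diet they ran from 22 to 122 in control cortex (71), 0 to 34 in MSA cortex (8), 16 to 151 in control callosum (73), 0 to 120 in MSA callosum (11) and 29 to 96 in control striatum (50). For the interaction they ran from 10 to 28 in cortex (14) and 2 to 44 in striatum (13), and for callosum against cortex from 141 to 774 (473). Depth limited Idi1, which had 541 counts over all 36 libraries.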
